A study of Mus musculus with 20 samples.

Results

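Trem2, Cd9, Gpnmb, Spp1, Lgals3, Itgax, Emr1, Cd68 and Msr1, marker genes of inflammatory and lipid-associated macrophages, were followed through inguinal white adipose tissue (iWAT) and brown adipose tissue (BAT) after an adipocyte-specific gene deletion. These 9 genes were taken by name from a deposited table of 25219 genes. The rule for taking them used no measured value, but they were proposed with earlier results of these data known. The table holds 20 libraries of bulk RNA, 5 each from Control iWAT, Ai-α4KO iWAT, Control BAT and Ai-α4KO BAT. All tissues came from male mice 1 week after recombination, which was induced by tamoxifen from 2 months of age. Ai-α4KO mice carry floxed alleles of Igbp1, the gene for the phosphatase-binding protein α4, and Adiponectin-CreERT2, a tamoxifen-dependent recombinase driven in adipocytes. The labels name the Control mice WT, and by the study's methods they carried the floxed alleles without the Cre transgene and also received tamoxifen. The deletion thus acts in adipocytes, whereas the 9 genes are best known from macrophages, and whole tissue was measured. Emr1 is the older symbol of the gene for F4/80 (Adgre1).

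Macrophages of adipose tissue clear lipid and dying adipocytes, around which they gather as crown-like structures. Those that take up much lipid are known for TREM2, a lipid-sensing receptor that signals through the adaptor DAP12 (Tyrobp), the tetraspanin CD9, the lysosomal glycoprotein GPNMB, the secreted matrix protein osteopontin (Spp1) and the glycan-binding protein galectin-3 (Lgals3). Itgax encodes CD11c, the integrin chain that is widely used to mark pro-inflammatory adipose macrophages. F4/80 and the lysosomal protein CD68 mark mouse macrophages broadly, and Msr1 encodes the class A scavenger receptor that binds modified lipoproteins.

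The 9 genes lie on 7 chromosomes of mm10, the build named in the submitters' processing notes. Gpnmb (chr6:49036518-49058182, + strand) and Cd9 (chr6:125460266-125494755, - strand) share chromosome 6, and Trem2 (chr17:48346401-48352276, + strand) and Emr1 (chr17:57358686-57483529, + strand) share chromosome 17. Spp1 (chr5:104435111-104441053, + strand), Lgals3 (chr14:47373860-47386167, + strand), Itgax (chr7:128129568-128150657, + strand), Cd68 (chr11:69664213-69666170, - strand) and Msr1 (chr8:39581700-39642678, - strand) stand alone on theirs. The span of Msr1 overlaps 1 other gene of the table, the microRNA gene Mir669e, and no other of the 9 genes overlaps a listed gene. RefSeq promoter windows on GRCm38.p6 were matched for 7 of the 9 genes, all but Emr1 and Msr1. Both strands were searched for 3 motifs, TGANTCA (AP-1), GAGGAA (the core bound by the myeloid factor PU.1) and TCACGTG (bound by the lysosomal MiT/TFE factors). TGANTCA was found beside the start sites of Trem2, Gpnmb, Itgax and Cd68, 4 of the 7 genes, and in 7.81% of 32851 mouse promoter windows. GAGGAA was found for Trem2, Cd68 and Spp1, and in 28.3% of all windows, while TCACGTG was in none of the 7 and in 3.77% of all. The windows with TGANTCA are shown here because these 4 genes share it while their changes in iWAT ranged widely. Capitals mark TGANTCA and GAGGAA on either strand, and each window runs 5′ to 3′ on the strand of its gene (Trem2, chr17:48346151-48346450, + strand, Gpnmb, chr6:49036268-49036567, + strand, Itgax, chr7:128129300-128129599, + strand, Cd68, chr11:69666121-69666420, - strand).
Trem2: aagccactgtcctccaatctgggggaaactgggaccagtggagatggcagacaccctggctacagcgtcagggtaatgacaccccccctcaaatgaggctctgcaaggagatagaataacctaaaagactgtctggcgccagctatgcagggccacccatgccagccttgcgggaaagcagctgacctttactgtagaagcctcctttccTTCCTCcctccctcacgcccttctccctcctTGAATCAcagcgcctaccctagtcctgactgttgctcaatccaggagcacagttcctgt
Gpnmb: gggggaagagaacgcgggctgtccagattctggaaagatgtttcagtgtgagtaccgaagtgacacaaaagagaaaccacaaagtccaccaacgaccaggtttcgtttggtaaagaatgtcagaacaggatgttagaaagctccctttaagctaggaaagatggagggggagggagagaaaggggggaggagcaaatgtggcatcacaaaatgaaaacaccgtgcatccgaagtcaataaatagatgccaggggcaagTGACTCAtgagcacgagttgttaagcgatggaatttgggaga
Itgax: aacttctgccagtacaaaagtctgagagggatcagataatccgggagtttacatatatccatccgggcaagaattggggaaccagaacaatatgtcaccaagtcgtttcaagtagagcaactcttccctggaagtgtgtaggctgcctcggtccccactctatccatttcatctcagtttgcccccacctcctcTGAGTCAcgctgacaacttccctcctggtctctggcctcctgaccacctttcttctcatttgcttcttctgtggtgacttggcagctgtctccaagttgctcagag
Cd68: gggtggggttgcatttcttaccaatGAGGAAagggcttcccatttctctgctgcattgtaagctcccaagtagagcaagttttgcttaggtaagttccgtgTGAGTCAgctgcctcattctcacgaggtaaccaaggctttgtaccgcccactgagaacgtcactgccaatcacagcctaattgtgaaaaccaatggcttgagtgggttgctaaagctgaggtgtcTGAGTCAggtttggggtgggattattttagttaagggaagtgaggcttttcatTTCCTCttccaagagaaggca
The match lay 9 bases upstream of the start site in Trem2 and 56 in Itgax, 149 and 24 upstream in Cd68, and just downstream of the start in Gpnmb. These are matches of letters only, and no measurement of binding was made in these libraries.

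Between 24023371 and 50384446 reads were counted per library. Igbp1, the targeted gene, fell from 67.2 ± 7.01 to 10.8 ± 0.394 CPM (counts scaled to the TMM-normalized library size, mean ± SD, n = 5) in iWAT and from 93.9 ± 7.29 to 17.0 ± 4.83 CPM in BAT, with no overlap between genotypes in either tissue. Some iWAT libraries stood apart in genes of other cells. The summed level of 8 B cell genes was 513 CPM in Control iWAT replicate 1 and 204 CPM in replicate 4, against 6.53 to 8.38 CPM in the other 3 Control iWAT libraries. Summed T and NK cell genes were at 200 and 201 CPM in the same pair and at 8.29 to 12 CPM in the other 3. Skeletal muscle genes summed to 8090 CPM in Control iWAT replicate 4 and 4430 CPM in Ai-α4KO iWAT replicate 1, and to at most 205 CPM in the other 8 iWAT libraries. In BAT, muscle genes summed to 1010 to 10600 CPM in Control and 14600 to 49200 CPM in Ai-α4KO libraries, with no overlap.

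All 9 genes rose in Ai-α4KO BAT, and 5 of them, Lgals3, Itgax, Emr1, Cd68 and Msr1, rose in Ai-α4KO iWAT. The other 4, Trem2, Cd9, Gpnmb and Spp1, did not pass the test in iWAT. In BAT the rises ran from 2.67-fold for Cd9 to 30.8-fold for Trem2, and in iWAT from 3.42-fold for Lgals3 to 9.95-fold for Itgax. Genotypes were compared by the quasi-likelihood test of edgeR, p-values were adjusted by Benjamini-Hochberg over all genes tested within a tissue, and calls needed an adjusted p under 0.01 together with a difference of 2-fold or more. By this rule 22.0% of 14604 genes were called in iWAT, 11.3% as higher, and 31.5% of 14344 in BAT, 18.2% as higher. Every one of the 9 genes passed the filter on low counts in both tissues. The Ai-α4KO libraries lay above every Control library for 5 of 9 genes in iWAT, where 20.7% of all genes did, and for 9 of 9 in BAT, where 24.7% did. In bulk tissue, more macrophages and more RNA of a gene per macrophage cannot be told apart.

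**Figure D1:**
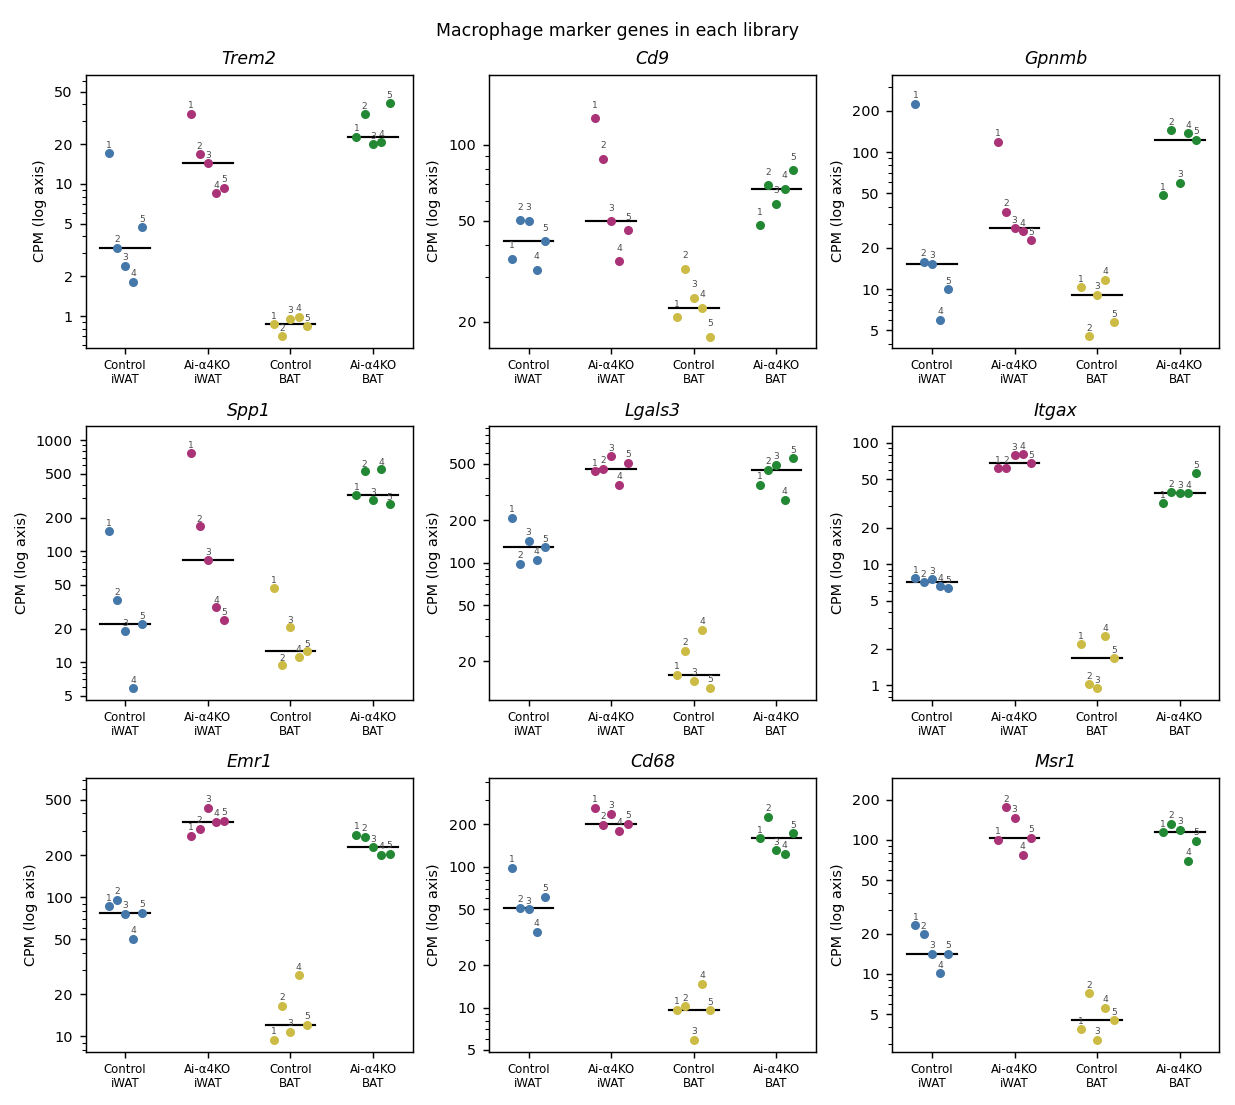
Level of the 9 genes in every library, in CPM on a log axis, with 5 libraries in each of 4 groups (numbers: replicates, black lines: medians). All Ai-α4KO BAT libraries lie above all Control BAT libraries in every panel, and Control iWAT replicate 1 (224 CPM for Gpnmb) lies far above the rest of its group in the Trem2, Gpnmb and Spp1 panels.

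Trem2, the lipid receptor, was at 17, 3.29, 2.4, 1.82 and 4.72 CPM in the 5 Control iWAT libraries and at 33.9, 16.8, 14.3, 8.51 and 9.36 CPM in Ai-α4KO iWAT. Control BAT held 0.865, 0.704, 0.952, 0.988 and 0.836 CPM (at most 28 counts a library) and Ai-α4KO BAT 22.7, 33.7, 20, 20.6 and 40.7 CPM. In BAT the genotypes were far apart, whereas in iWAT the first Control library lay above 4 of the 5 Ai-α4KO libraries. The log2 fold change was 4.94 (SE 0.26, adjusted p = 5.83e-08) in BAT and 1.49 (SE 0.62, adjusted p = 0.061) in iWAT. Without Control iWAT replicate 1, Trem2 passed in iWAT with a log2 fold change of 2.37 (adjusted p = 0.00174), and without the first library of both iWAT groups with 1.97 (adjusted p = 0.000968), a setting chosen after seeing the data. Without Ai-α4KO iWAT replicate 1 alone the log2 fold change of Trem2 was 1.06 and was not called.

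Gpnmb, a lysosomal glycoprotein of lipid-laden macrophages, was at 224, 15.9, 15.3, 5.99 and 9.97 CPM in Control iWAT and at 119, 36.6, 27.8, 26.4 and 22.7 CPM in Ai-α4KO iWAT. In BAT the values were 10.3, 4.54, 9.11, 11.7 and 5.73 CPM in Control and 48.4, 144, 59.5, 137 and 123 CPM in Ai-α4KO. The first library of each iWAT group was high, the one in Control above all Ai-α4KO libraries, while the other 4 Control iWAT libraries lay below every Ai-α4KO library. Gpnmb rose in BAT by 3.59 on the log2 scale (SE 0.38, adjusted p = 6.1e-06), and its log2 fold change in iWAT was -0.22 (SE 0.95, adjusted p = 0.858). The direction in iWAT turned to 1.92 without Control iWAT replicate 1 (adjusted p = 0.0141, not called) and to 1.24 without the first library of both groups (adjusted p = 0.00616, called). Control iWAT replicate 1 is also the library with the highest B cell sum, and its scavenger receptor Marco was at 91.3 CPM, against 0.376 to 7.03 CPM in the other Control iWAT libraries. With the B cell score as a covariate the log2 fold change of Gpnmb was 1.85 (adjusted p = 0.0938). Control iWAT replicate 4, which also had B cell RNA, held the lowest Gpnmb of its group. The source of the high Gpnmb in Control iWAT replicate 1 was not tested.

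Spp1, which encodes osteopontin, a secreted ligand of CD44 and of several integrins, had the widest range. It was at 154, 36.5, 19.3, 5.87 and 22.2 CPM in Control iWAT and at 776, 168, 83.5, 31.4 and 24.2 CPM in Ai-α4KO iWAT. Control BAT held 47.1, 9.39, 20.6, 11.2 and 12.6 CPM and Ai-α4KO BAT 325, 525, 293, 549 and 266 CPM. In iWAT the genotypes overlapped and the highest library of Ai-α4KO exceeded its lowest 32-fold, whereas in BAT they were apart and the Ai-α4KO libraries differed at most 2.07-fold. The log2 fold change was 4.24 in BAT (SE 0.47, adjusted p = 9.22e-06) and 2.19 in iWAT (SE 1.06, adjusted p = 0.102), and the iWAT value was 0.69 without Ai-α4KO iWAT replicate 1 and 3.31 without Control iWAT replicate 1.

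Lgals3, a galectin that binds glycans at damaged membranes and on the cell surface, ran from 97.5 to 206 CPM in Control iWAT and from 354 to 565 CPM in Ai-α4KO iWAT. It was at 12.9 to 33.4 CPM in Control BAT and at 276 to 546 CPM in Ai-α4KO BAT. Neither tissue showed overlap, and the Ai-α4KO ranges of iWAT and BAT nearly coincided. Lgals3 rose by 1.78 in iWAT (SE 0.21, adjusted p = 4.41e-05) and by 4.37 in BAT (SE 0.31, adjusted p = 2.81e-07) on the log2 scale. Cd9, a tetraspanin that many cell types besides macrophages make, had the smallest change of the 9 genes in BAT. It ran from 32 to 50.2 CPM in Control and 34.7 to 127 CPM in Ai-α4KO iWAT, and from 17.4 to 32.4 CPM in Control and 48.1 to 79.4 CPM in Ai-α4KO BAT. The genotypes overlapped in iWAT, with a log2 fold change of 0.72 (SE 0.32, adjusted p = 0.079) that ran from 0.38 to 0.9 without single libraries. They were apart in BAT, where Cd9 rose by 1.42 (SE 0.18, adjusted p = 2.52e-05).

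Itgax, the CD11c chain, was the most even of the 9 genes within groups of iWAT. Its values were 7.71, 7.18, 7.48, 6.57 and 6.39 CPM in Control iWAT and 61.6, 62.4, 79.6, 81.1 and 68.6 CPM in Ai-α4KO iWAT. In BAT they were 2.19, 1.02, 0.952, 2.54 and 1.67 CPM in Control and 31.7, 39.2, 38.7, 38.8 and 56.4 CPM in Ai-α4KO. The first libraries of the iWAT groups, high in Gpnmb and Spp1, were not apart from the others in Itgax. Itgax rose by 3.32 on the log2 scale in iWAT (SE 0.11, adjusted p = 4.99e-08) and by 4.57 in BAT (SE 0.29, adjusted p = 1.5e-07).

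The broad markers moved alike. Emr1 ran from 50.3 to 95.9 CPM in Control and 276 to 437 CPM in Ai-α4KO iWAT, and from 9.42 to 27.4 CPM in Control and 202 to 279 CPM in Ai-α4KO BAT. Cd68 ran from 34.6 to 98.4 CPM and 181 to 261 CPM in the same iWAT groups and from 5.89 to 14.7 CPM and 124 to 226 CPM in those of BAT. Neither gene overlapped between genotypes, and both were highest in Ai-α4KO iWAT. Emr1 rose by 2.16 in iWAT (SE 0.18, adjusted p = 5.67e-06) and 3.92 in BAT (SE 0.29, adjusted p = 3.67e-07), and Cd68 by 1.86 (SE 0.25, adjusted p = 8.43e-05) and 3.98 (SE 0.25, adjusted p = 1.41e-07), all on the log2 scale. Msr1, the scavenger receptor, was at 23.1, 19.7, 14.1, 10.1 and 14.2 CPM in Control and 100, 175, 147, 77.2 and 104 CPM in Ai-α4KO iWAT. In BAT it was at 3.87, 7.2, 3.22, 5.61 and 4.5 CPM in Control and 114, 132, 119, 69.6 and 98.8 CPM in Ai-α4KO. Msr1 did not overlap between genotypes and reached about the same level in both Ai-α4KO tissues, with rises of 2.89 in iWAT (SE 0.28, adjusted p = 1.15e-05) and 4.41 in BAT (SE 0.24, adjusted p = 7.17e-08). For the 5 genes called in iWAT and all 9 in BAT, the exact permutation test of log2(CPM + 0.5), two-sided, gave p = 0.0079, the smallest that 5 against 5 libraries allow. In iWAT the same exact test gave p = 0.048 for Trem2, 0.2 for Cd9, 0.4 for Gpnmb and 0.17 for Spp1. With a skeletal muscle score as a covariate all 9 genes were called in BAT. Muscle sums did not overlap between genotypes in BAT, so this fit cannot separate muscle content from genotype.

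An interaction term over the 20 libraries tested if genotype acted differently in BAT and iWAT, with calls at an adjusted p under 0.01 whatever the size. For 6 of 9 genes the effect was larger in BAT, where 3.26% of 15230 genes were called in that direction and 4.86% in either. The BAT effect exceeded the iWAT effect by 3.49 for Trem2 (SE 0.73, adjusted p = 0.00446), 2.62 for Lgals3 (SE 0.37, adjusted p = 0.000293), 2.15 for Cd68 (SE 0.35, adjusted p = 9e-04) and 1.79 for Emr1 (SE 0.34, adjusted p = 0.00222) on the log2 scale. The excess of Msr1 was 1.55 (SE 0.36, adjusted p = 0.00897) and that of Itgax 1.28 (SE 0.29, adjusted p = 0.00711), and these 2 calls lay near the threshold. Msr1 was lost in 10 and Itgax in 6 of the 20 fits that left out 1 library, over which the excess ran from 1.44 to 1.83 and from 1.14 to 1.49. The excess was 3.85 for Gpnmb (SE 1.13, adjusted p = 0.0277), 2.09 for Spp1 (95% interval -0.4 to 4.59) and 0.72 for Cd9 (95% interval -0.09 to 1.53), none of them called. Without Control iWAT replicate 1 the excess was 2.65 for Trem2, still called, 1.74 for Gpnmb and 0.99 for Spp1, and without Ai-α4KO iWAT replicate 1 it was 4.02, 4.64 (called) and 3.67.

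**Figure D2:**
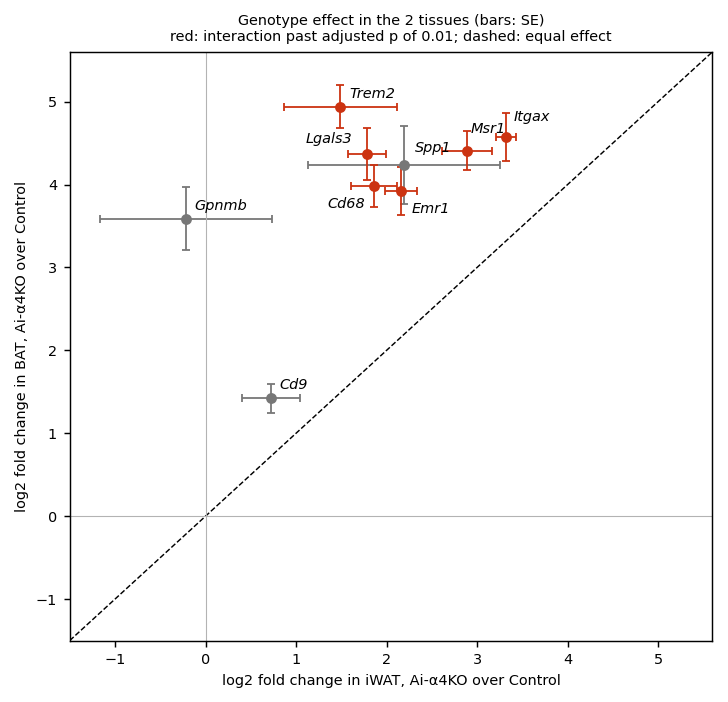
Log2 fold change of Ai-α4KO over Control in iWAT (horizontal axis) and BAT (vertical axis) for the 9 genes, with SE bars from edgeR. All 9 points lie above the dashed line of equal effect, and the 6 in red passed the interaction test.

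BAT and iWAT were next compared within each genotype, with the same libraries as above. In Control, 7 of 9 genes were lower in BAT than in iWAT, where 15.4% of 15230 genes were called lower and 22.7% in either direction. BAT was lower by 6.75-fold for Trem2 (log2 difference -2.75, SE 0.55), 6.74-fold for Lgals3 (-2.75, SE 0.27), 5.89-fold for Cd68 (-2.56, SE 0.26), 5.05-fold for Emr1 (-2.34, SE 0.25), 4.2-fold for Itgax (-2.07, SE 0.22) and 3.32-fold for Msr1 (-1.73, SE 0.27). These 6 genes did not overlap between the Control tissues, as did not 19.1% of all genes in that direction. Gpnmb was called at -2.71 (SE 0.83, adjusted p = 0.00999), a call that was lost in 15 of 20 fits without 1 library, and its difference was -0.51 without Control iWAT replicate 1. Without that library the difference of Trem2 was -1.81, still called, and that of Spp1 -0.06. Cd9 (-0.83, SE 0.28) and Spp1 (-1.24, SE 0.85) were not called. In Ai-α4KO mice none of the 9 genes was called between BAT and iWAT by edgeR, where 12.6% of genes were, or by DESeq2. In edgeR 2 of them, Itgax and Emr1, had an unadjusted p below 0.05. Itgax was lower in BAT by 0.79 on the log2 scale (95% interval -1.19 to -0.38, adjusted p = 0.00355), under the 2-fold threshold, with every BAT library below every iWAT library, as were 11.1% of all genes. The 95% intervals of the log2 difference were -0.67 to 0.39 for Lgals3, -0.7 to 0.35 for Msr1, -0.92 to 0.1 for Cd68, -1.03 to -0.05 for Emr1 and -0.67 to 0.47 for Cd9. Those of Trem2 (-0.27 to 1.74), Gpnmb (-0.48 to 2.76) and Spp1 (-0.9 to 2.61) were wide and do not show equal levels. Without single libraries their differences ran from 0.65 to 1.3 for Trem2, 1.01 to 1.98 for Gpnmb and 0.65 to 2.47 for Spp1, none called. The median of all genes in this contrast was -0.11 on the log2 scale.

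Levels of different genes were compared on the deposited FPKM scale, which divides by transcript length. Lgals3 was the most abundant of the 9 genes in Control iWAT (86.9 ± 29.7 FPKM, mean ± SD, n = 5), Ai-α4KO iWAT (325 ± 52.7 FPKM) and Ai-α4KO BAT (276 ± 74.4 FPKM). In Control BAT Cd9 led with 15.3 ± 3.11 FPKM, ahead of Lgals3 with 11.1 ± 4.84 FPKM, and these 2 overlapped. Itgax was the least abundant in 3 groups, with 1.58 ± 0.148 FPKM in Control iWAT, 0.326 ± 0.145 FPKM in Control BAT and 9.26 ± 2.08 FPKM in Ai-α4KO BAT. In Ai-α4KO iWAT it was at 17.2 ± 2.13 FPKM, and Gpnmb was least abundant with 12.1 ± 10.9 FPKM. Spp1 moved from 9.48 ± 7.43 FPKM in Control BAT to 215 ± 72.3 FPKM in Ai-α4KO BAT, where it ranked behind Lgals3 alone. Trem2, at 0.59 ± 0.0871 FPKM in Control BAT, reached 22.0 ± 7.85 FPKM in Ai-α4KO BAT and ranked eighth in both. Most neighbours in these orders overlapped. Every library of the upper gene exceeded every library of the lower one for Msr1 over Itgax in Control iWAT, for Lgals3 over Cd68 in Ai-α4KO iWAT, and for Cd68 over Emr1, Cd9 over Msr1 and Trem2 over Itgax in Ai-α4KO BAT.

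The markers were next set against genes that macrophages use broadly. The reference was the geometric mean of Csf1r, C1qa, C1qb, C1qc and Fcgr1, a choice of 5 genes made after results were seen, at 87.8 to 189 CPM in Control iWAT, 406 to 532 CPM in Ai-α4KO iWAT, 19 to 39.2 CPM in Control BAT and 228 to 385 CPM in Ai-α4KO BAT. Relative to it, 2 of 9 genes were higher and 1 lower in Ai-α4KO iWAT, where 1.47% of genes were called higher and 78.0% lower, and 3 were higher and 1 lower in Ai-α4KO BAT, where 1.18% were called higher and 90.1% lower. Itgax gained in both tissues, by 1.6 (SE 0.23, adjusted p = 1.24e-05) in iWAT and 1.17 (SE 0.31, adjusted p = 0.000838) in BAT on the log2 scale. Its ratio to the reference ran from 0.0409 to 0.0748 in Control and from 0.116 to 0.2 in Ai-α4KO iWAT, without overlap, and from 0.0326 to 0.0994 and 0.0971 to 0.169 in BAT, where the ends of the ranges overlapped. Msr1 gained by 1.23 (SE 0.24, adjusted p = 0.000232) in iWAT and 1.01 (SE 0.28, adjusted p = 0.0013) in BAT. The BAT call of Msr1 lay at the 2-fold threshold and was lost in 4 of 10 fits without 1 library, which gave 0.84 to 1.12 (it was lost without Control BAT replicate 3, 4 or 5 or Ai-α4KO BAT replicate 3).

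Trem2 gained in BAT, by 1.44 (SE 0.31, adjusted p = 7.28e-05), and its value in iWAT was -0.07 (SE 0.46). Lgals3 was at 0.99 in BAT (SE 0.3, adjusted p = 0.0029), just under the 2-fold threshold, which it passed in 6 of 10 fits without 1 library (range 0.8 to 1.07), and at 0.1 in iWAT (SE 0.22). Cd9 was lower relative to the reference in both tissues, at -2.05 in BAT (SE 0.3, adjusted p = 1.48e-07) and -1.03 in iWAT (SE 0.3, adjusted p = 0.00513). The iWAT call was lost in 6 of 10 fits without 1 library (range -1.28 to -0.89). Most genes were lower against this reference, and the medians over all genes, -3.49 in BAT and -1.72 in iWAT, lay below Cd9. The calls of Lgals3 in BAT and Cd9 in iWAT lay at the threshold and differed under the reference first planned, which held 1 more gene.

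In BAT, Emr1 (0.58, SE 0.29), Cd68 (0.56, SE 0.27), Spp1 (0.66, SE 0.42) and Gpnmb (0.1, SE 0.34) did not pass against the reference. Without Control BAT replicate 1 Spp1 was at 1.33 (SE 0.4) and was called. Emr1 (0.49, SE 0.22), Cd68 (0.22, SE 0.21), Spp1 (0.61, SE 0.8) and Gpnmb (-1.68, SE 0.75) were not called in iWAT. Gpnmb was at 0.18 without Control iWAT replicate 1 and Spp1 at -0.72 without Ai-α4KO iWAT replicate 1, neither called. The genes of the reference rose by different amounts themselves, Csf1r by 1.03 in iWAT and 2.74 in BAT, and Fcgr1 by 2.96 and 4.57. With Csf1r alone as the reference 8 of 9 genes were called in BAT, 7 higher. With the pan-leukocyte gene Ptprc 2 were called, Trem2 higher and Cd9 lower, so that Itgax at 0.94 and Msr1 at 0.79 lost the call. The shares of all genes called under Csf1r or Ptprc are not given here. In iWAT Itgax was called under each of these references, Emr1 was gained with Csf1r at 1.09 (SE 0.23), Msr1 was lost with Ptprc at 0.73, and Cd9 was lost with Csf1r at -0.34.

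**Figure D3:**
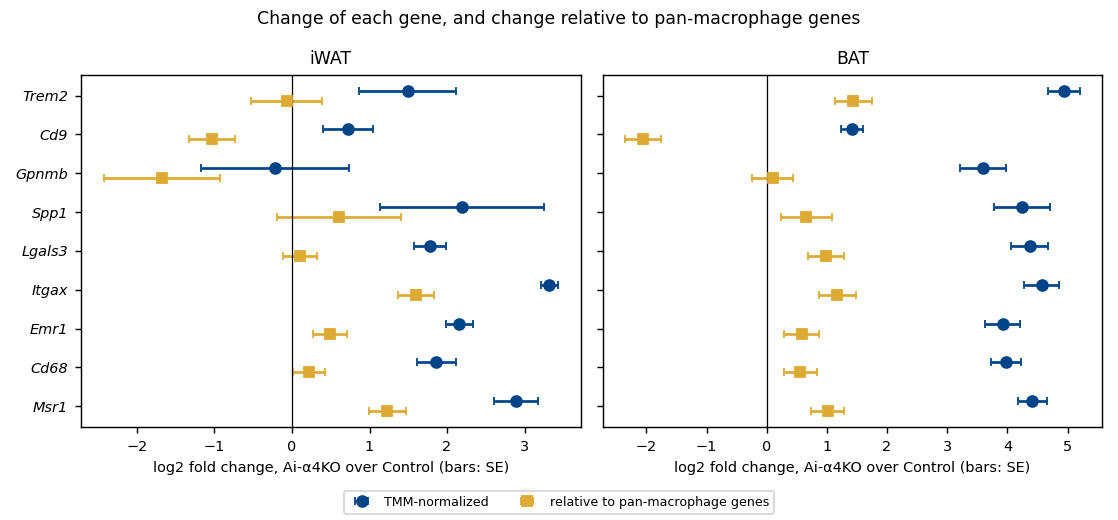
Log2 fold change of each gene in Ai-α4KO over Control after TMM normalization (circles) and relative to the 5 pan-macrophage genes (squares), with SE bars, in iWAT and BAT. Against the reference Itgax and Msr1 lie above 0 in both tissues, and Trem2 and Lgals3 lie above 0 in BAT and near 0 in iWAT. Cd9 lies below 0 in both tissues, as do most of the genes tested, which are not shown.

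**Figure D4:**
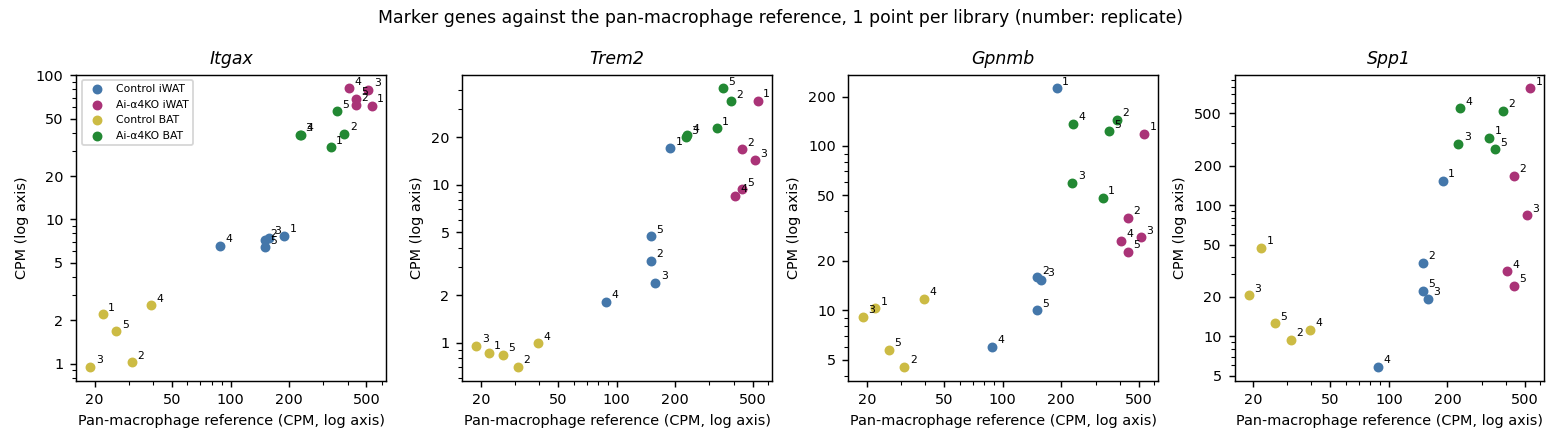
Level of 4 genes against the pan-macrophage reference, in CPM on log axes, 1 point per library. Itgax and the reference are both higher in every Ai-α4KO library than in the Control libraries, whereas Gpnmb in Control iWAT replicate 1 (224 CPM) and Spp1 in Ai-α4KO iWAT replicate 1 (776 CPM) lie far from their groups.

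The genes whose levels ran most like those of 3 markers over the 20 libraries were found by the root mean square difference of centred log2 CPM, a description, among 13966 genes. For Trem2 they were Mpeg1 (0.51), Slc37a2 (0.56) and Cxcl16 (0.6), for Itgax S100a4 (0.31), Slamf8 (0.32) and Fgr (0.33), and for Emr1 Ctsc (0.2), Clec4a1 (0.23) and Nckap1l (0.23). The neighbours of Emr1 were closer to it than those of Trem2 were to Trem2. Among the 9 genes themselves, Cd68 was nearest to Emr1 (0.33) and to Trem2 (0.69), and Msr1 was nearest to Itgax (0.53). The neighbours were chosen for running like these markers, so their calls add no support. All 9 were called higher in both tissues, Mpeg1, the pore-forming perforin-2 of macrophages, by 1.83 in iWAT and 3.9 in BAT on the log2 scale, and Fgr, a Src-family kinase, by 3.43 and 5.09.

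Genes that work with the 9 markers were described next by counts of calls and medians, beside medians over all genes of 0.01 in iWAT and -0.03 in BAT. The lists share some genes, and all values are log2 fold changes of Ai-α4KO over Control. Of the TREM2 signalling and shedding genes, 7 of 9 rose in iWAT (median log2 fold change 1.34) and 8 of 9 in BAT (3.12). Tyrobp, the adaptor of TREM2, rose by 2.4 in iWAT (SE 0.21) and 3.98 in BAT (SE 0.19), from 34.3 to 80.7 CPM up to 240 to 352 CPM in iWAT and from 9.47 to 17.1 CPM up to 152 to 241 CPM in BAT. Unlike Trem2 itself, Tyrobp did not overlap between genotypes in iWAT. Syk, the kinase downstream of it, rose by 1.34 and 3.12, the TREM2-shedding protease gene Adam17 by 1.29 and 1.09, and the related protease gene Adam10 had values of 0.95 and 0.78, under the fold threshold. Hcst, the other adaptor, was at -0.02 in iWAT (SE 0.57) and rose by 2.99 in BAT.

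Of 16 further lipid-associated macrophage genes, 7 rose in each tissue and Lpl fell in iWAT, with medians of 0.66 and 0.82. Mmp12, a macrophage elastase, rose by 3.15 in iWAT and 4.61 in BAT, and Atp6v0d2, a subunit of the lysosomal proton pump, by 2.57 and 5.56. Lipa, the lysosomal acid lipase (1.05), and Plin2, a lipid droplet coat protein (1.2), rose in iWAT and were at 0.11 and 0.25 in BAT. Capg, Cd63 and Nceh1 rose in both tissues, and Ctsk and Ctsl in BAT. The list holds genes that adipocytes make in large amounts, Fabp4 (-0.72 in iWAT and -0.41 in BAT), Cd36 (-0.64 and -0.94) and Lpl (-1.59 and -0.62), and 7 of 8 adipocyte genes fell in iWAT and 6 of 8 in BAT. Fabp5 was at -0.54 and 0.95 and Ctsd, a lysosomal protease, at -0.18 and 0.19, none of them called.

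Receptors and partners of single markers followed no single pattern. Of the osteopontin receptors 3 of 8 rose in iWAT (median 0.63) and 5 of 8 in BAT (1.3). Cd44 rose by 3.1 in iWAT, from 32 to 46.6 CPM up to 241 to 387 CPM, and by 4.34 in BAT, from 8.84 to 12.6 CPM up to 158 to 273 CPM. Its levels were much more even between libraries than those of Spp1. Among the integrin chains, Itgav was at 0.65 and 0.58, Itgb5 at -0.43 and -0.16, and Itgb3 at -0.19 in iWAT, while Itgb3 rose by 1.06 in BAT. Of a list of integrin chains related to CD11c and genes tied to them, 4 of 6 rose in iWAT (median 1.71) and 5 of 6 in BAT (3.05). Itgb2, the β2 chain that pairs with CD11c, was at 2.21 and 3.5 and Itgam, the CD11b chain, at 2.48 and 4.06. Itgal was at 0.11 in iWAT (SE 0.55) and rose by 2.47 in BAT, and the adaptor Tln1 was at 0.3 and -0.03.

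Tetraspanins and partners of CD9 rose in 2 of 9 cases in iWAT (median 0.13) and 5 of 9 in BAT (1.02), where Tspan4 fell by 1.2. The leukocyte tetraspanin Cd53 rose by 2.63 and 4.47 and the lysosomal Cd63 by 1.14 and 2.47, whereas Cd81, made by most cells, was at -0.19 and -0.73. Of the other scavenger receptors 2 of 8 rose in iWAT (median 0.79), Cd163 and Cxcl16, and 5 of 8 in BAT (2.44), with Marco at -0.68 in iWAT (SE 1.33) and up by 3.35 in BAT. The list of other galectins also holds Lgals3bp, a glycoprotein that binds galectin-3 and is no galectin itself. None of its 6 genes rose in iWAT and 1 rose in BAT, Lgals3bp by 1.25. Lgals4 and Lgals12, an adipocyte galectin, fell in both tissues, Lgals12 by 2.2 and 1.41, with medians of 0.27 and -0.13. Lgals1 was at 0.09 and -0.08 and Lgals9 at 0.5 and -0.17. Of the 4 MiT/TFE factors, known regulators of Gpnmb, Tfec rose by 3.95 in iWAT and 6.08 in BAT and Mitf by 1.09 and 1.31, with medians of 0.9 and 0.86, while Tfeb (-0.47 and 0.14) and Tfe3 (0.71 and 0.41) were not called. Tfec was at 1.38 to 2.8 CPM in Control and 18.4 to 61.8 CPM in Ai-α4KO iWAT, and at 0.227 to 0.665 CPM in Control and 17.2 to 38.4 CPM in Ai-α4KO BAT.

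**Figure D5:**
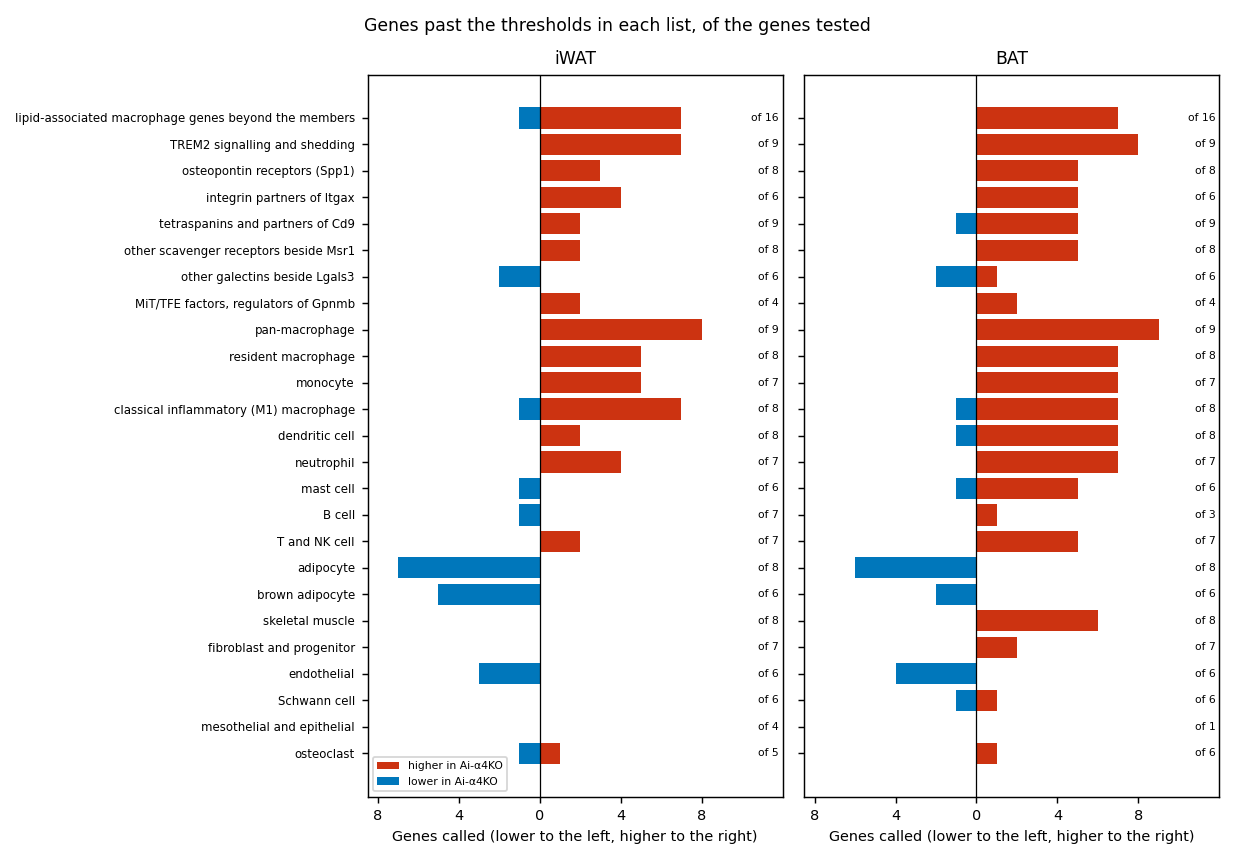
Number of genes called higher (red, to the right) or lower (blue, to the left) in Ai-α4KO for each of 25 gene lists in iWAT and BAT, with the number tested at the right edge. The pan-macrophage, monocyte and classical inflammatory lists lean to the right, with 8 of 9 pan-macrophage genes higher in iWAT and 9 of 9 in BAT, and the adipocyte and endothelial lists lean to the left.

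Other myeloid lists were counted in the same way. Pan-macrophage genes rose in 8 of 9 cases in iWAT (median 1.56) and 9 of 9 in BAT (3.4), C1qa by 1.47 and 3.4, and only Mertk was not called in iWAT (0.81). Resident macrophage genes rose in 5 of 8 cases in iWAT (1.17) and 7 of 8 in BAT (2.81), with Mrc1 (CD206) up by 2.44 and 4, Lyve1 at 0.75 in iWAT and up by 1.78 in BAT, and Timd4 at -0.29 and 1.49, not called. Monocyte genes rose in 5 of 7 cases (2.26) and 7 of 7 (4.59), with Ccr2 up by 3.36 and 4.59, and Ly6c2 at 1.68 in iWAT (SE 0.6) and up by 4.2 in BAT. Classical inflammatory genes rose in 7 of 8 cases in both tissues (medians 2.45 and 4.3), Il1b by 4.95 and 5.53. The eighth, Nos2, fell by 2.36 and 1.62, from 3.26 to 8.56 CPM down to 0.519 to 1.34 CPM in iWAT and from 4.97 to 13.8 CPM down to 2.33 to 4.5 CPM in BAT. Of the osteoclast genes, which macrophages that fuse share, Dcstamp rose by 3.7 and 4.68, Acp5 fell by 1.6 in iWAT and was at -0.72 in BAT, and the list had medians of 0.37 over 5 genes and 0.86 over 6.

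Lists of other cells that could add to these markers gave the following. Dendritic cell genes, which share Itgax, rose in 2 of 8 cases in iWAT (median 0.44), summed to 29.2 to 77.2 CPM in Control and 61.1 to 102 CPM in Ai-α4KO, and rose in 7 of 8 in BAT (2.53), from 12.8 to 17.8 CPM up to 37.8 to 53.4 CPM, where Zbtb46 fell by 1.13. Neutrophil genes rose in 4 of 7 and 7 of 7 cases (2.39 and 3.58), with sums of 39.6 to 132 and 179 to 552 CPM in iWAT and 14.7 to 42.4 and 214 to 402 CPM in BAT. Mast cell genes were called in iWAT for Kit alone, which fell by 1.42 (median 0.68), and rose in 5 of 6 cases in BAT (2.22), where Kit fell by 2.07. T and NK cell genes rose in 2 of 7 cases in iWAT (median -2.11) and 5 of 7 in BAT (2.4). Their sums in Ai-α4KO iWAT, 18.8 to 63.3 CPM, lay below Control iWAT replicates 1 and 4 (200 and 201 CPM) and above the other 3 Control libraries (8.29 to 12 CPM), and the median without that pair was not computed. B cell genes were called for Cd79a, which fell in iWAT by 5.01 (1 of 7, median -4.63), and Cd79b, which rose in BAT by 1.27 (1 of 3, median 0.46). In BAT the B cell sums were at 1.41 to 4.73 CPM in Control and 3.22 to 6.18 CPM in Ai-α4KO. With a B cell score as a covariate 5 of 9 markers were called in iWAT, as without it, and the part of the other cells in the values of the 9 genes was not tested.

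Among genes of the tissue itself, adipocyte medians were -1.78 and -1.77, with Adipoq down by 2.21 and 2.15. Brown adipocyte genes fell in 5 of 6 cases in iWAT (median -2.56) and 2 of 6 in BAT (-0.67), and endothelial genes in 3 of 6 (-1.01) and 4 of 6 (-1.33). Fibroblast and progenitor genes were called in none of 7 cases in iWAT (median 0.32) and rose in 2 of 7 in BAT (0.76). Skeletal muscle genes were called in none of 8 cases in iWAT (-0.52) and rose in 6 of 8 in BAT (1.99). Of the Schwann cell genes none of 6 was called in iWAT (-0.69) and Pmp22 rose and S100b fell in BAT (0.12), and no mesothelial or epithelial gene was called among 4 tested in iWAT (0.76) and 1 in BAT (0.15).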

How the data were processed

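The 20 libraries were grouped by tissue and genotype from the labels. The authors deposited expected counts without normalization and FPKM values per gene and library, and the submitters' processing notes name STAR 2.5.3a, bcl2fastq 2 and mm10. The counting tool, annotation release and filters are not given in the sources used here. Rounded counts entered edgeR 4.0.16 in R 4.3.3 (filterByExpr, TMM, glmQLFit, glmQLFTest) without covariates, within each tissue for genotype and over 20 libraries for the interaction and the tissue contrasts. The SE was the absolute log2 fold change over the square root of F, and gave the 95% intervals.

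The labels do not state that libraries came from separate mice, so p-values measure the spread between these libraries, which may be technical. The 9 genes, the 25 lists (187 genes, of which Ly6g and Trac were not matched) and the tests were chosen with earlier results of these data known. After the results were seen, 1 gene that is not reported here was taken out of the pan-macrophage list and reference, so the reference has 5 genes, 1 fewer than planned. This lowered the BAT values relative to the reference, ended the call of Lgals3 there and added that of Cd9 in iWAT. Genes named from the lists were chosen for their roles, for a call against the direction of their list, or as a list's extreme, besides a few (such as Mertk, Adam10, Itgal and Fcgr1) named after their values were seen.

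Alternatives were DESeq2 1.42.0, other normalization factors and count filters, an adjusted p below 0.05, a replicate block, limma 3.58.1 on log2(FPKM + 1) and log2(FPKM + 0.1), other reference genes, marker scores as covariates, and leaving out libraries. On simulated data edgeR recovered 194 of 194 changed genes in iWAT (14846 genes) and 192 of 192 in BAT (13861 genes), with 1 false call in BAT against the reference, and 192 of 196 in the interaction (15183 genes) with 2 false calls.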

Additional observations from a re-analysis of the deposited data

Results flagged for a closer look

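Gpnmb in Control iWAT replicate 1 (224 CPM) was far above the other 4 libraries of its group (5.99 to 15.9 CPM), and Gpnmb in Ai-α4KO iWAT replicate 1 (119 CPM) was far above its group (22.7 to 36.6 CPM). Both exceeded the 95% critical value of Dixon's test for 5 samples, 0.71, with gaps of 0.738 and 0.714 of the group's range on the scale of log2(CPM + 0.5). In all, 36 groups of 5 libraries were tested, and chance alone gives such a gap in about 1 in 20 groups.

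The genotype effect differed between tissues by the interaction test for 6 genes, all larger in BAT than in iWAT on the log2 scale. The differences were 3.49 for Trem2 (2.65 without Control iWAT replicate 1), 2.62 for Lgals3, 2.15 for Cd68, 1.79 for Emr1, 1.55 for Msr1 and 1.28 for Itgax. In the Control tissues these 6 genes were lower in BAT in every library.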

How the results depend on the processing

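The counts of called genes kept within 1.5 times under every setting run except the reference in BAT, with 8 genes called against Csf1r alone and 2 against Ptprc in place of 4. Leaving out single libraries gave 5 to 6 called genes in iWAT, 9 in BAT, 4 to 7 in the interaction, 6 to 7 between Control tissues, 0 between Ai-α4KO tissues, and 2 to 3 and 3 to 5 relative to the reference in iWAT and BAT.

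The labels do not say whether same-numbered libraries share a mouse. Deviations of same-numbered libraries correlated at -0.38 to 0.29 between genotypes and -0.21 to 0.33 between tissues, so the numbers were not used as pairs. With a replicate block 7 genes were called in iWAT (Trem2 and Spp1 gained), 9 in BAT, 5 in the interaction (Itgax lost), 6 between Control tissues (Gpnmb lost), 0 between Ai-α4KO tissues, and 3 and 3 relative to the reference in iWAT and BAT (Msr1 lost in BAT). The shares of all genes called with the block are not given here. Not every library correlated best with its own number.

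The direction turned for some values that were not called. From -0.22 the log2 fold change of Gpnmb in iWAT went to 0.9 with the replicate block, 0.78 and 0.99 with limma on log2(FPKM + 1) and log2(FPKM + 0.1), 1.69 without Control iWAT replicates 1 and 4, 1.85 with the B cell score and 1.24 without the first library of each group, and ran from -0.94 to 1.92 without single libraries. DESeq2 gave it no adjusted p there. Relative to the reference in iWAT, Trem2 went from -0.07 to 0.11 with the replicate block, 0.59 with Csf1r, 0.58 without Control iWAT replicates 1 and 4 and 0.27 without the first libraries (-0.42 to 0.62 without single libraries). With Ptprc, Lgals3 was at -0.37, Emr1 at -0.08 and Cd68 at -0.2 in iWAT and Gpnmb at -0.04 in BAT. Gpnmb relative to the reference in iWAT was at 0.09 without Control iWAT replicates 1 and 4. Without single libraries, values relative to the reference ran from -2.27 to 0.18 for Gpnmb, -0.72 to 1.56 for Spp1 and -0.01 to 0.19 for Lgals3 in iWAT, and from -0.18 to 0.3 for Gpnmb in BAT. Between Ai-α4KO tissues Cd9 ran from -0.17 to 0.36, Msr1 from -0.19 to 0.11 and Lgals3 from -0.14 to 0.05. The cause was not tested.

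Without normalization factors the median of all genes moved to 0.13 in iWAT and 0.23 in BAT, and the same 5 and 9 genes were called. Between Control tissues the difference of Cd9 was then -1.05 (edgeR, adjusted p = 0.00338) and was called. DESeq2 called 7 genes in the interaction (Gpnmb gained). The lowest count of any of the 9 genes in any library was 18, for Trem2 in Control BAT.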
